A study of Mus musculus with 6 samples.

Results

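The genes described here are 8 members of the tumour necrosis factor (TNF) and interleukin-1 (IL-1) axis, out of 54532 gene rows in the count table: the cytokine genes Tnf, Il1a and Il1b, the antagonist Il1rn, and the receptor genes Tnfrsf1a, Tnfrsf1b, Il1r1 and Il1rap. They were chosen by name, with earlier results of these data known. The Ensembl ID of each row was matched to the GRCm38 annotation, and all 8 were found and were tested. Whole liver RNA was compared between 3 Cd44 knockout mice, carrying the targeted allele Cd44tm1Hbg on a C57BL/6 congenic background (B6.Cg-Cd44tm1Hbg/J), and 3 wild-type mice. Mice of both genotypes were fed ethanol: a Lieber-DeCarli diet holding 5% ethanol (by volume) was given over 10 days, a gavage of 5 g/kg followed on day 11, and livers were taken 9 hours after it. There was no group without ethanol, and the targeted allele is present in every cell of the knockout mice. The contrast therefore asks how TNF and IL-1 transcripts of the ethanol-exposed liver differ when Cd44, the hyaluronan receptor of leukocytes and other cells, is missing throughout the body. Age, sex and the strain of the wild-type mice were not stated in the labels.

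TNF and IL-1 are the cytokines with which activated macrophages first alert the rest of the liver. TNF is made as a membrane protein that a protease releases, and it acts through the receptor TNFR1, found on nearly all cells, or TNFR2, found mainly on leukocytes and endothelium. IL-1 alpha and IL-1 beta bind the receptor IL-1R1, which then recruits the accessory chain IL-1RAcP, whereas the IL-1 receptor antagonist occupies IL-1R1 without recruiting that chain. Kupffer cells and infiltrating monocytes are known as the main hepatic sources of TNF and IL-1 beta, and hepatocytes carry the receptors.

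The promoters of the agonist genes and of the most abundant receptor gene are printed first, to set the scarce transcripts of Tnf, Il1b and Il1a beside that of Tnfrsf1a, whose mean was close in the 2 genotypes. RefSeq windows on GRCm38.p6 were found for all 8 genes, 11 windows in all, since Il1rn has several annotated starts and Il1r1 has a pair. Each window runs 5′ to 3′ on the gene's strand from 250 bases before the start to 50 bases after it. Motifs searched on both strands are in capitals: TATAAA (the TATA box), TGANTCA (AP-1), TTGCNNAA (C/EBP), GAGGAA (the core bound by PU.1) and the NF-kB consensus; no match overlaps another. Tnf lies at chr17:35201958-35202257 (minus strand), Il1b at chr2:129371090-129371389 (minus strand), Il1a at chr2:129309923-129310222 (minus strand) and Tnfrsf1a at chr6:125349473-125349772 (plus strand).
Tnf: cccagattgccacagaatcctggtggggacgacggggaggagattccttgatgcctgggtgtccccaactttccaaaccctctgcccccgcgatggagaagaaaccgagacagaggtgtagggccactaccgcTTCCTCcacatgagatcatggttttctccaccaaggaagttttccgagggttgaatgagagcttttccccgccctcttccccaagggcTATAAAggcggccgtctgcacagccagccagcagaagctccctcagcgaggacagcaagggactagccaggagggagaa
Il1b: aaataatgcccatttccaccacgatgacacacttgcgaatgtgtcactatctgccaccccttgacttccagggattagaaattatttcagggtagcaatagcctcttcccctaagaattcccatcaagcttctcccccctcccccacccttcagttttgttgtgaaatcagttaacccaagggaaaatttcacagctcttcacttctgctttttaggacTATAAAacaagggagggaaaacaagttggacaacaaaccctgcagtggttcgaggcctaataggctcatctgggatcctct
Il1a: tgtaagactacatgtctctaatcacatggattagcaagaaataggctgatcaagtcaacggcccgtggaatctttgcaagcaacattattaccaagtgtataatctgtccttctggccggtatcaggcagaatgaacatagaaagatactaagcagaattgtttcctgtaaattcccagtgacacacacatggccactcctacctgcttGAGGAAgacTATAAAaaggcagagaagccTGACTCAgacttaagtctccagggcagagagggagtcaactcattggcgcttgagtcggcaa
Tnfrsf1a: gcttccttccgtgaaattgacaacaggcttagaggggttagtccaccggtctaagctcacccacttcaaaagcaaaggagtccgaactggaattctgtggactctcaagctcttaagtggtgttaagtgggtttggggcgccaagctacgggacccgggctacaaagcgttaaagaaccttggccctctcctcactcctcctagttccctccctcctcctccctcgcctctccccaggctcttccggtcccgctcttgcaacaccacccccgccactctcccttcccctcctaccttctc
TATAAA began at position -29 from the start in Tnf, -31 in Il1b and -32 in Il1a. It stood in 13.6% of all 32851 windows. Il1a also held TGACTCA at position -12 and GAGGAA at -41, and Tnf held TTCCTC, the reverse complement of GAGGAA, at -117. The Tnfrsf1a window held none of the motifs searched, which says only that these letters are absent there. Among the other windows, Tnfrsf1b held GAGGAA, the first Il1rn window held TGAGTCA, the third Il1rn window held TTTATA downstream of its start, the Il1r1 windows held TTGCTGAA and an NF-kB consensus match, and Il1rap held none. AP-1 matched 7.81% of all windows, C/EBP 10.8%, the PU.1 core 28.3% and the NF-kB consensus 8.46%.

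Reads assigned to annotated genes came to 15429784 to 19293777 in the knockout libraries and 16083334 to 18006959 in the wild-type libraries. A count of 0 leaves room for up to 3 counts, here 0.155 to 0.194 CPM (TMM-scaled counts relative to library size), a floor for counting error only. Cd44 had 1, 0 and 0 counts in the knockout livers and 590, 175 and 568 counts in the wild-type livers; no library went against its label. Hepatocyte markers summed to between 89367 and 112343 CPM in knockout livers and between 83460 and 100312 CPM in wild-type livers. Summed over 14 macrophage markers, knockout mice 1, 2 and 3 had 369, 415 and 339 CPM and wild-type mice 1, 2 and 3 had 882, 454 and 971 CPM. All 14 markers had their lower mean in knockout mice and an unadjusted edgeR p under 0.05, where 7.59% of all tested genes did. None was at 0, and none passed an adjusted p of 0.05 in edgeR. DESeq2 called 9 of them lower, where it called 1.33% of genes lower. Wild-type mouse 2 lay close to the knockout mice in this sum. In whole liver, fewer macrophages and less RNA per macrophage cannot be told apart.

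The 4 members with a separate level in the 2 genotypes were Tnf, Il1b, Il1rn and Tnfrsf1b, each lower in every knockout mouse than in any wild-type mouse. For comparison, the knockout mice all lay below the wild-type mice for 9.42% of the 14145 genes tested; the opposite separation held for 8.81%, and 18.2% did not overlap in either direction. The same 4 members had an unadjusted p under 0.05 in edgeR's quasi-likelihood test, all with a lower mean, where 7.59% of tested genes did. Both readings use the same values, so they are not separate support, and neither was planned for the members. None of the 8 passed an adjusted p of 0.05 in edgeR's test, which called 0.0141% of genes. DESeq2, which called 2.03% of genes with an adjusted p (1.33% lower and 0.699% higher), called 1 member, Il1rn. The knockout mean was below the wild-type mean for 6 members and above it for 2, where 51.1% of tested genes had a negative log2 fold change. The median log2 fold change was -0.48 for the members and -0.01 over all tested genes. Without knockout mouse 1 the number with an unadjusted p under 0.05 was 2, and it was 3 to 5 when any other mouse was left out.

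**Figure D1:**
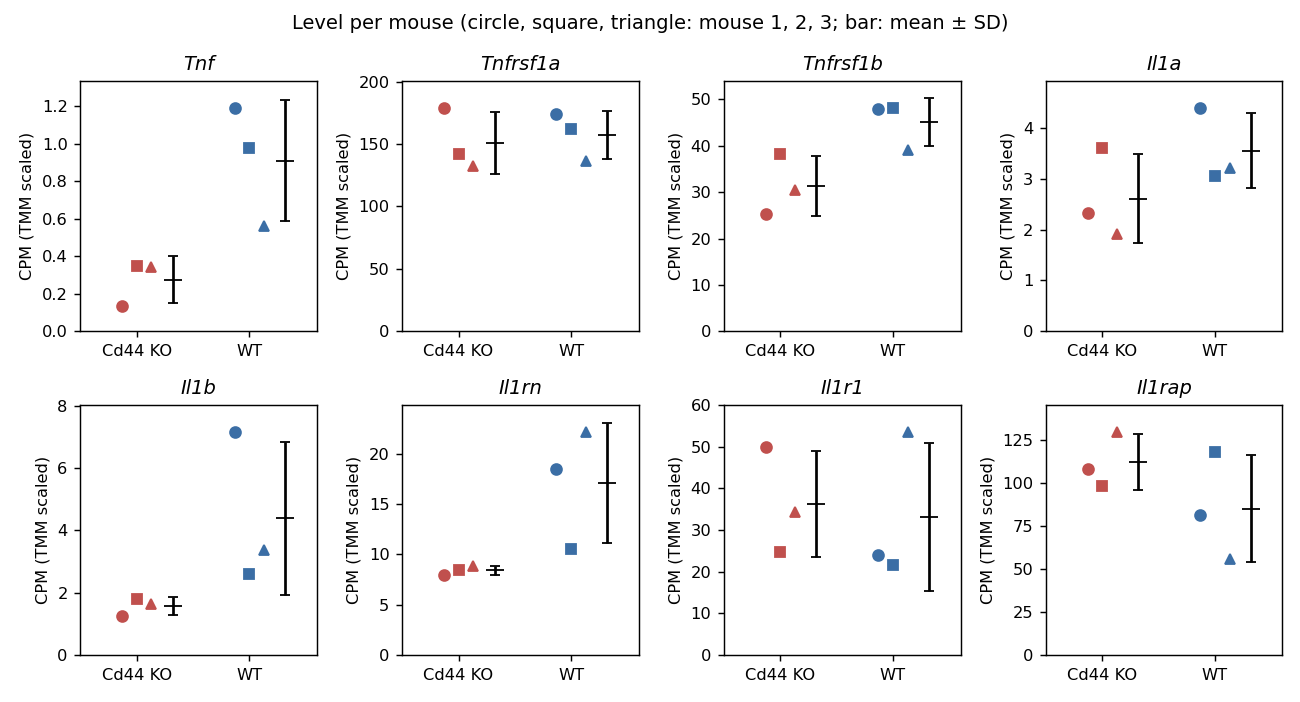
Level of each gene in each mouse, in CPM scaled by TMM (vertical axes start at 0), with knockout mice in red and wild-type mice in blue; circles, squares and triangles are mice 1, 2 and 3, and the bar is the mean ± SD of 3 mice. Tnf, Tnfrsf1b, Il1b and Il1rn separate by genotype, whereas Tnfrsf1a, Il1a, Il1r1 and Il1rap overlap.

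Tnf, the founding cytokine of its family (ENSMUSG00000024401; GRCm38, chromosome 17, 35199381 to 35202007, minus strand), was the scarcest of the 8 transcripts. It had 2, 7 and 5 counts in knockout mice 1, 2 and 3, against 22, 15 and 11 counts in wild-type mice 1, 2 and 3. These correspond to 0.133, 0.350 and 0.342 CPM in the knockout mice and to 1.19, 0.978 and 0.560 CPM in the wild-type mice. The genotypes did not overlap, although knockout mouse 1 was below the level of 3 counts and wild-type mouse 3 lay nearer to the knockout mice than to the other wild-type mice. The mean was 0.275 ± 0.123 CPM in knockout livers and 0.911 ± 0.323 CPM in wild-type livers (SD, n = 3 each). On the log2 scale the knockout differed by -1.66 ± 0.54 (fold change ± SE, here and below), which did not pass in edgeR (adjusted p = 0.277).

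Il1b encodes IL-1 beta, which is made as an inactive precursor and cut by caspase-1 (ENSMUSG00000027398; chromosome 2, 129364570 to 129371139, minus strand). Knockout mice 1, 2 and 3 had 1.26, 1.80 and 1.64 CPM, and wild-type mice 1, 2 and 3 had 7.17, 2.61 and 3.36 CPM. The knockout values were close together, whereas wild-type mouse 1 stood well above the other wild-type mice. The log2 fold change was -1.47 ± 0.42 (edgeR adjusted p = 0.239; DESeq2 adjusted p = 0.0612), and -0.92 without wild-type mouse 1.

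Il1a encodes IL-1 alpha, which is active without caspase-1 and is released by dying cells (ENSMUSG00000027399; chromosome 2, 129299610 to 129309972, minus strand). Its level was 2.32, 3.60 and 1.92 CPM in knockout mice 1, 2 and 3 and 4.40, 3.06 and 3.21 CPM in wild-type mice 1, 2 and 3. Knockout mouse 2 lay above 2 of the wild-type mice, so the genotypes overlapped. The log2 fold change was -0.43 ± 0.31 (edgeR adjusted p = 0.634). Its exons share 222 bases with Gm14023 on the opposite strand, which had 46 counts over all libraries against 326 for Il1a.

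Il1rn encodes the IL-1 receptor antagonist (ENSMUSG00000026981; chromosome 2, 24336853 to 24351494, plus strand). It was nearly equal in the knockout mice, at 7.96, 8.45 and 8.83 CPM, and spread widely in wild-type mice 1, 2 and 3, at 18.5, 10.5 and 22.2 CPM. The genotypes did not overlap, and the lowest wild-type value, in mouse 2, was the one nearest to the knockout. Il1rn had the smallest p of the 8 members in edgeR, ranking 295 of the 14145 genes, with a log2 fold change of -1.02 ± 0.26 (adjusted p = 0.218). It was called by DESeq2 (-1.02 ± 0.29, adjusted p = 0.0366). In edgeR without wild-type mouse 2 it was called as well, at -1.26 (adjusted p = 0.0287), but that fit called 151 genes, against 2 with all mice. With any other mouse left out, its edgeR adjusted p was 0.296 to 0.698.

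Il1a, Il1b and Il1rn share chromosome 2 with the targeted gene. Il1a and Il1b are 26.4 and 26.5 Mb from Cd44, and Il1rn is 78.5 Mb away. A congenic strain can keep donor sequence around the targeted gene; the part of such sequence in these values was not tested.

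Tnfrsf1b encodes TNFR2 (ENSMUSG00000028599; chromosome 4, 145213463 to 145246870, minus strand). It had 25.3, 38.2 and 30.4 CPM in knockout mice 1, 2 and 3 and 48.0, 48.2 and 39.2 CPM in wild-type mice 1, 2 and 3. Knockout mouse 2 came within about 1 CPM of wild-type mouse 3, so the separation was narrow at that end. The log2 fold change was -0.53 ± 0.17 (edgeR adjusted p = 0.277).

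Tnfrsf1a encodes TNFR1, whose intracellular death domain can start either NF-kB signalling or cell death (ENSMUSG00000030341; chromosome 6, 125349362 to 125362484, plus strand). Knockout mice 1, 2 and 3 had 179, 142 and 132 CPM, and wild-type mice 1, 2 and 3 had 174, 162 and 136 CPM. The highest and the lowest of the 6 values were both from knockout mice. The log2 fold change was -0.06 ± 0.16 (edgeR adjusted p = 0.918), and its sign turned, to 0.04 without knockout mouse 3 and 0.02 without wild-type mouse 1.

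Il1r1 encodes the signalling IL-1 receptor (ENSMUSG00000026072; chromosome 1, 40225080 to 40317257, plus strand). Its values ran across genotypes, at 49.9, 24.7 and 34.2 CPM in knockout mice 1, 2 and 3 and 24.0, 21.6 and 53.6 CPM in wild-type mice 1, 2 and 3. Knockout mouse 1 and wild-type mouse 3 were the high values of their genotypes. The log2 fold change of 0.13 ± 0.40 (edgeR adjusted p = 0.932) turned negative without knockout mouse 1, wild-type mouse 1 or wild-type mouse 2, and was 0.67 without wild-type mouse 3.

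Il1rap encodes the accessory chain IL-1RAcP, which also serves the receptors for IL-33 and IL-36 (ENSMUSG00000022514; chromosome 16, 26581704 to 26730117, plus strand). Knockout mice 1, 2 and 3 had 108, 98.2 and 130 CPM, and wild-type mice 1, 2 and 3 had 81.7, 118 and 55.7 CPM. Wild-type mouse 2 lay among the knockout mice and wild-type mouse 3 stood lowest. The log2 fold change was 0.40 ± 0.26 (edgeR adjusted p = 0.586). Il1rap shares 552 exonic bases with the antisense gene Gm20319, which held 1395 counts over all libraries against 9894 for Il1rap, and no step marking strand is described, so reads of the overlap are uncertain. Gm20319 itself gave a log2 fold change of 0.28 ± 0.27 (edgeR adjusted p = 0.729).

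**Figure D2:**
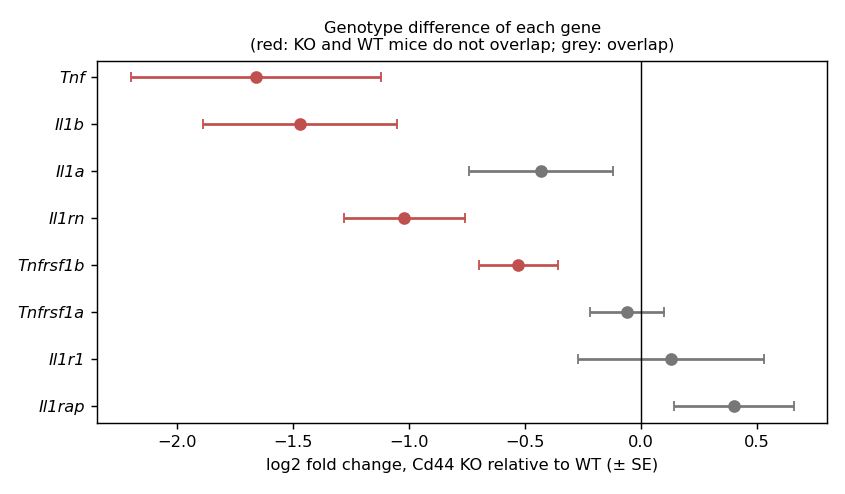
Log2 fold change of each gene, Cd44 knockout relative to wild type, with its SE from edgeR; red points are genes whose knockout and wild-type mice do not overlap, and grey points overlap. The cytokine and antagonist genes lie from -1.66 to -0.43, the receptor genes from -0.53 to 0.40.

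Levels between genes were compared per length, as CPM per kilobase of merged exons (RPKM). Merged exons cover every annotated transcript of a gene, 11360 bases for Il1rap and 5535 bases for Il1rn. A gene expressed mainly as a shorter transcript is therefore understated, and the order of genes depends on this length. Tnfrsf1a was highest in both genotypes, at 58.2 ± 9.57 RPKM in knockout and 60.7 ± 7.46 RPKM in wild-type livers (SD, n = 3 each). Il1rap, Tnfrsf1b and Il1r1 followed in the knockout and Tnfrsf1b, Il1rap and Il1r1 in the wild type, with means from 5.70 to 9.85 RPKM in the knockout and from 5.19 to 11.8 RPKM in the wild type, and each overlapped its neighbour in this order. The ligand genes had lower means than the receptor genes, although in wild-type mice Il1r1 and Il1rn overlapped. Il1rn averaged 1.52 ± 0.0795 RPKM in the knockout and 3.08 ± 1.08 RPKM in the wild type, and Tnf, the lowest in both, 0.168 ± 0.0753 RPKM in the knockout and 0.556 ± 0.197 RPKM in the wild type. Il1a and Il1b changed places. In knockout mice Il1a (1.32 ± 0.446 RPKM) lay above Il1b (0.822 ± 0.146 RPKM) without overlap, whereas in wild-type mice Il1b (2.30 ± 1.28 RPKM) had the higher mean and overlapped Il1a (1.80 ± 0.372 RPKM). The count ratio of Il1b to Il1a, chosen after these values were seen, was 0.549, 0.503 and 0.860 in knockout mice 1, 2 and 3 and 1.63, 0.853 and 1.05 in wild-type mice 1, 2 and 3. Knockout mouse 3 and wild-type mouse 2 were almost equal, so the ratios overlapped, and the exact two-sided permutation test gave p = 0.2.

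The balance of antagonist to agonist was read within each library, where no scaling between libraries is needed. With 3 mice against 3, an exact test cannot go below p = 0.1. The ratio of Il1rn to Il1b counts was 6.18, 4.64 and 5.29 in knockout mice 1, 2 and 3, against 2.57, 3.99 and 6.56 in wild-type mice 1, 2 and 3. Wild-type mouse 3 exceeded every knockout mouse, and the log2 ratio differed by 0.39 between genotype means (exact two-sided permutation p = 0.5). Il1rn to Il1a gave 3.39, 2.34 and 4.54 in knockout mice and 4.18, 3.40 and 6.87 in wild-type mice, a log2 difference of -0.48 (exact permutation p = 0.4). In neither case did the genotypes separate. The ratio of the receptors was 0.141, 0.269 and 0.231 for Tnfrsf1b to Tnfrsf1a in knockout mice 1, 2 and 3, and 0.276, 0.297 and 0.289 in wild-type mice. The wild-type mice were nearly equal and all above the knockout mice, with a log2 difference of -0.48 and the smallest p this design allows (exact permutation p = 0.1). That difference was -0.21 without knockout mouse 1. Tnfrsf1a was nearly even between genotypes (log2 fold change -0.06), so the ratio largely repeats the difference in Tnfrsf1b (-0.53). Among single genes tested, 18.2% also did not overlap in either direction, and the p-values of the ratios were not adjusted. Il1r1 to Il1rap spread from 0.251 to 0.463 in knockout mice and from 0.183 to 0.963 in wild-type mice (exact permutation p = 0.8).

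**Figure D3:**
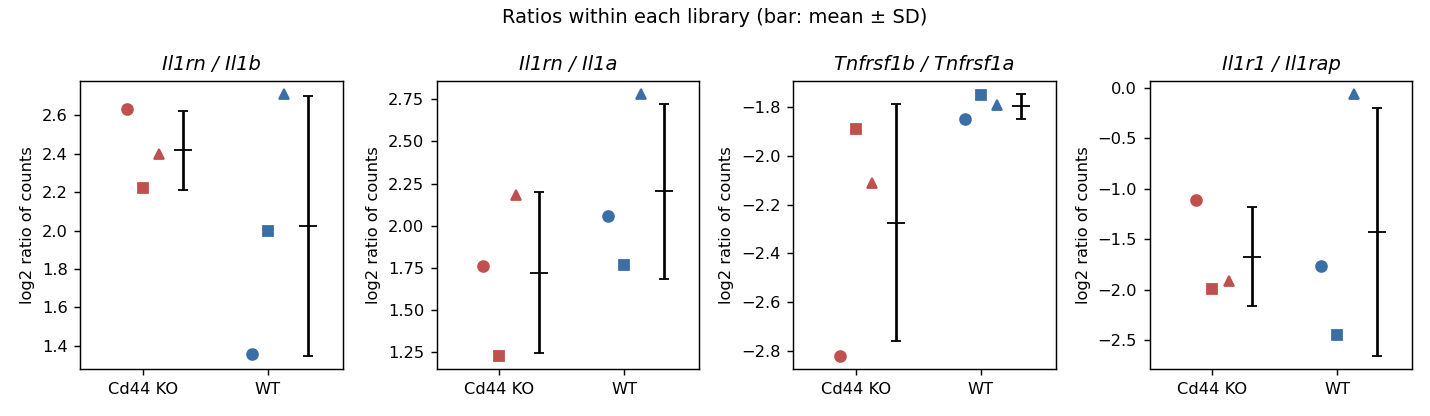
Log2 ratio of raw counts, plus 0.5 each, within each library, for the antagonist over each agonist, TNFR2 over TNFR1, and the IL-1 receptor over its accessory chain; knockout mice are red, wild-type mice blue, and bars are mean ± SD of 3 mice. The Tnfrsf1b to Tnfrsf1a ratios of the wild-type mice all lie above those of the knockout mice, and the other ratios overlap.

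Macrophage marker transcripts were lower in the knockout together with Tnf, Il1b, Il1rn and Tnfrsf1b, and each of the 8 members was set beside them in the same library. Il1rn followed the markers most closely: divided by the summed counts of the 14 markers it was 0.0216, 0.0204 and 0.0262 in knockout mice 1, 2 and 3 and 0.0210, 0.0232 and 0.0229 in wild-type mice 1, 2 and 3. These ratios overlapped and differed by 0.02 on the log2 scale (exact permutation p = 0.9). Il1b per marker was 0.00350, 0.00440 and 0.00496 in knockout mice and 0.00816, 0.00581 and 0.00349 in wild-type mice, a log2 difference of -0.37 (exact permutation p = 0.5), with wild-type mouse 3 as low as the lowest knockout mouse. For Tnf the difference was -0.68 (exact permutation p = 0.4) and for Il1a 0.50 (exact permutation p = 0.3), and both overlapped. Tnfrsf1b gave 0.43 (exact permutation p = 0.4). Set against the markers, the receptors Tnfrsf1a, Il1r1 and Il1rap had higher ratios in the knockout by 0.90, 1.17 and 1.42, and only Il1r1 did not overlap (exact permutation p = 0.1). The marker sum was lower in every knockout mouse, so a gene at an even level has a higher ratio there. In CPM, Il1r1 itself overlapped between genotypes. Adjusted over the 8 members, no p was below 0.533.

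**Figure D4:**
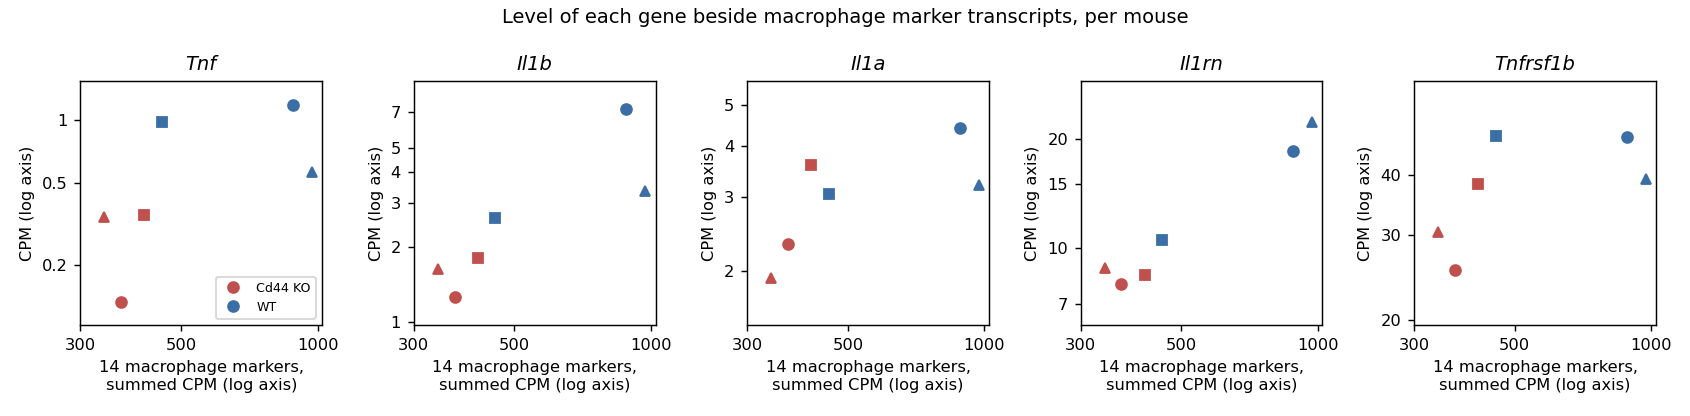
Level of Tnf, Il1b, Il1a, Il1rn and Tnfrsf1b in each mouse (CPM, log axis) against the summed CPM of 14 macrophage markers in the same library (log axis); red is knockout, blue is wild type, and circles, squares and triangles are mice 1, 2 and 3. For Il1rn, wild-type mouse 2 sits beside the knockout mice and wild-type mice 1 and 3 sit apart at high marker levels, whereas for Tnf wild-type mouse 2 is high at a marker sum of 454 CPM.

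Other cell types that can make or bind these cytokines were read from their markers. Monocyte markers summed to 17.6, 19.2 and 14 CPM in knockout mice and 39.2, 26.7 and 62.1 CPM in wild-type mice. Of 7 tested, 7 had a lower mean, where 51.1% of all tested genes did, and S100a4 was at 0 in every library. Kupffer cell markers summed to 187 to 200 CPM in the knockout and 200 to 664 CPM in the wild type, where wild-type mouse 2 stood at the knockout level. Neutrophil markers were scarce, at 3.22 to 7.29 CPM in knockout and 6.58 to 10.6 CPM in wild-type livers, and 4 of 12 were tested, all with a lower mean. Sinusoidal endothelial markers overlapped, at 237 to 328 CPM in the knockout and 218 to 448 CPM in the wild type. T and NK cell markers summed to 2.12 to 6.70 CPM in knockout and 3.05 to 7.43 CPM in wild-type livers. B cell markers ran widely, from 20.2 to 227 CPM in knockout and from 10.2 to 256 CPM in wild-type livers. Stellate cell markers summed to 408 to 520 CPM in knockout and 461 to 655 CPM in wild-type livers. Cholangiocyte markers summed to 27.5 to 36.3 CPM in knockout and 51.8 to 65.1 CPM in wild-type livers. The monocyte and cholangiocyte sums were each lower in every knockout mouse than in any wild-type mouse. All 5 tested cholangiocyte markers had a lower mean, where 51.1% of all tested genes did, and DESeq2 called 1 lower (background 1.33%). The part of any of these cell types in the cytokine values was not tested.

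Of 20 genes of TNF receptor signalling and shedding, all tested, 15 had a lower mean in the knockout, where 51.1% of all tested genes did, and none passed in edgeR or DESeq2. At an unadjusted p under 0.05, 2 had a lower and 2 a higher mean (background 7.59% and 5.22%), and the median log2 fold change was -0.13. Birc3, which encodes the ubiquitin ligase cIAP2, had 11.8, 15.8 and 11.8 CPM in knockout mice and 20.9, 20.3 and 15.9 CPM in wild-type mice, so the genotypes only just separated (log2 fold change -0.53 ± 0.18, edgeR adjusted p = 0.290). Rhbdf2 encodes iRhom2, which brings the TNF-releasing protease ADAM17 to the surface of myeloid cells. It averaged 18.8 ± 1.66 CPM in the knockout and 32.8 ± 14.5 CPM in the wild type, with wild-type mouse 2 at the knockout level (-0.81 ± 0.32, edgeR adjusted p = 0.367). Otulin, which removes linear ubiquitin, was at 56.9 ± 2.27 CPM in knockout and 42.7 ± 3.09 CPM in wild-type livers (0.42 ± 0.11, edgeR adjusted p = 0.222). Rnf31, which encodes the ligase HOIP that builds it, was at 26.2 ± 2.37 CPM in knockout and 20.1 ± 0.478 CPM in wild-type livers (0.38 ± 0.12, edgeR adjusted p = 0.273). Both were separate between genotypes, whereas other genes of linear ubiquitin in the list gave log2 fold changes of 0.09 (Rbck1), -0.20 (Sharpin) and -0.24 (Cyld). Rnf31 shares 123 exonic bases with Irf9 on the same strand and is uncertain.

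Of 19 genes of IL-1 processing and receptor signalling, all tested, none passed in edgeR. At an unadjusted p under 0.05, 2 had a lower mean and none a higher mean (background 7.59% and 5.22%). DESeq2 called 1, lower in the knockout (background 1.33%). That gene was Nlrp3, the inflammasome sensor through which caspase-1 is activated. It had 0.862, 0.5 and 0.685 CPM in knockout mice 1, 2 and 3 and 4.56, 1.17 and 2.39 CPM in wild-type mice 1, 2 and 3. Nlrp3 had the same order of wild-type mice as Il1b, and the reverse order of knockout mice. Its log2 fold change was -2.02 ± 0.55 (edgeR adjusted p = 0.229; DESeq2 adjusted p = 0.0469). Irak3 encodes IRAK-M, an inhibitor of IL-1 and Toll-like receptor signalling in macrophages, and gave -0.88 ± 0.33 (edgeR adjusted p = 0.325); its exons share 192 bases with the more abundant antisense neighbour Tmbim4, which makes it uncertain. Casp1 gave -0.38 ± 0.29 and Map3k8, a kinase needed for TNF production, -0.60 ± 0.35, and in both the genotypes overlapped. The list's median of -0.08 was close to that of all genes.

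Genes that TNF and IL-1 are known to induce mostly had lower means. Their list, like the others, was chosen with earlier results of these data known. Of 31 listed, 26 were tested, and 22 of these had a lower mean, where 51.1% of all tested genes did, with a median of -0.69. None passed in edgeR. At an unadjusted p under 0.05, 13 had a lower mean and none a higher mean (background 7.59% and 5.22%). DESeq2 called 7, all lower (background 1.33%). By smallest p these were led by the monocyte chemoattractant Ccl2 (1.31 ± 0.360 CPM in knockout and 7.79 ± 2.93 CPM in wild-type livers), followed by the chemokine Cxcl10, the early response gene Ier3 and the chemokine Cxcl2. Their log2 fold changes were -2.58, -1.63, -1.50 and -2.63. Cxcl10 is uncertain, since 133 of its exonic bases lie opposite Art3. The list has members made by hepatocytes as well as by macrophages, and macrophages also express several of the induced genes.

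**Figure D5:**
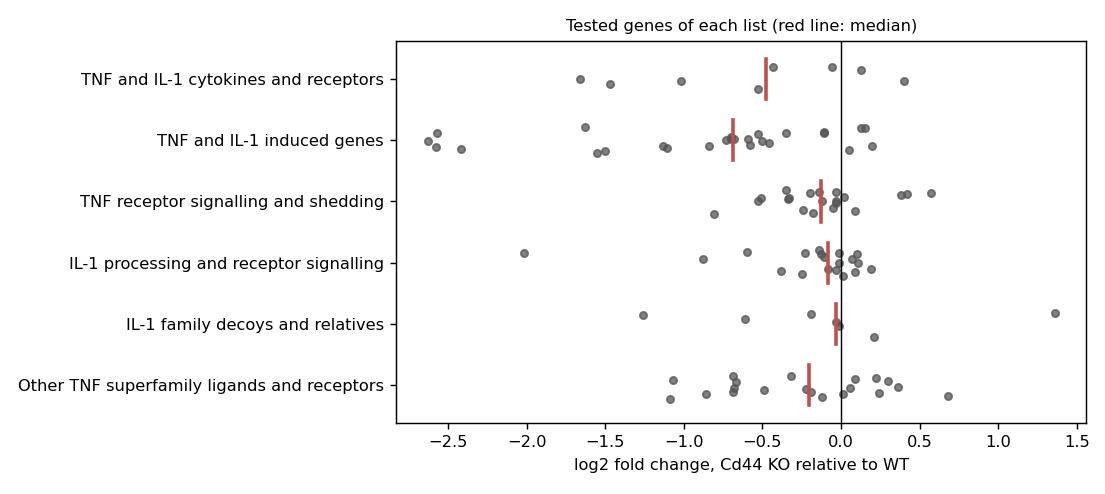
Log2 fold change, Cd44 knockout relative to wild type, of every tested gene in each list, with the list's median as a red line; points are spread vertically for visibility only. The medians are -0.48 for the 8 cytokine and receptor genes, -0.69 for the induced genes, and -0.13, -0.08, -0.03 and -0.20 for the other 4 lists.

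The decoy receptor of IL-1 beta was too scarce for the test but differed in its counts. Il1r2, which binds IL-1 without signalling, had 0, 1 and 0 counts in knockout mice 1, 2 and 3 and 4, 3 and 14 counts in wild-type mice 1, 2 and 3. It was chosen after its values were seen. Summed over mice, that is 1 knockout and 21 wild-type counts, and wild-type over knockout comes to 19.5 after scaling by library size (95% interval 3.14 to 808, which holds only the error of counting); 14 of the 21 wild-type counts came from mouse 3. Among 17 decoys and relatives of the IL-1 family, 15 were matched by symbol or synonym and 7 tested. None was called in edgeR or DESeq2. At an unadjusted p under 0.05 there was 1 in each direction (background 7.59% lower and 5.22% higher). Il18bp, a secreted trap for IL-18, had the lower mean at 12.6 ± 1.49 CPM in knockout and 19.2 ± 6.49 CPM in wild-type livers (-0.61 ± 0.26, edgeR adjusted p = 0.376), and it overlaps the more abundant Numa1. Il18r1, the IL-18 receptor chain, had the higher mean, at 0.882 ± 0.271 CPM in knockout and 0.329 ± 0.122 CPM in wild-type livers (1.36 ± 0.49, edgeR adjusted p = 0.307). Il18rap, its partner chain, gave -1.26 ± 0.74 (edgeR adjusted p = 0.537) on 0 to 9 counts per knockout and 12 to 14 counts per wild-type library, and Il18 gave 0.21 ± 0.27 (edgeR adjusted p = 0.812).

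The genes whose profile over the 6 libraries was nearest to each ligand were found among 11185 protein-coding genes with a mean log2 CPM of at least 1, by the root mean square difference of mean-centred log2 CPM. For Tnf these were Ikzf1, Dock2 and Noct, at differences of 0.30, 0.31 and 0.31 on the log2 scale. For Il1b they were Wfdc17 (0.11), Plek (0.15) and Vsig4 (0.16), which, like Il1b, were highest in wild-type mouse 1. For Il1rn they were Ppp1r18, Rhoc and Ccdc88b, each at 0.09 and each highest in wild-type mouse 3. For Il1a they were Cfap43 (0.07), Ttll1 (0.09) and Tlnrd1 (0.10). Vsig4, a complement receptor and Kupffer cell marker, had 19.8, 22.8 and 22.5 CPM in knockout mice and 74.7, 30.7 and 46.4 CPM in wild-type mice. All of these genes were chosen by nearness of profile. A shared highest mouse or order of mice is therefore part of that choice, not separate evidence of a link.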

How the data were processed

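Liver RNA of 6 mice was sequenced after poly(A) selection, 1 library per mouse, per the labels' protocols. Values are raw read counts for each Ensembl gene, deposited by the authors without normalisation. The submitters' processing notes name the build GRCm38.p6, the aligner HISAT2 2.0.5, the counter featureCounts 1.5.0-p3 and StringTie 1.3.3b. They state no annotation release, no strand setting and no rule for reads that map to several places. GENCODE M21 on the same build supplied names for 54495 of 54682 rows, and 37 further Ensembl IDs carried no symbol; 150 rows that name no gene (0.273% to 0.509% of counts) were left out.

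The genotype effect was fitted with edgeR 4.0.16 under R 4.3.3 (filterByExpr, TMM, robust quasi-likelihood F test with genotype as the term, all 6 libraries, Benjamini-Hochberg adjustment over 14145 genes, threshold 0.05; common biological coefficient of variation 0.237). On simulated counts both edgeR and DESeq2 made more false calls than the threshold sets. Of the genes called, 8.39% were false with edgeR and 21.2% with DESeq2. Of the 2-fold changes set into these counts, edgeR recovered 41% and DESeq2 55.3%. Of the 4-fold changes, they recovered 84.7% and 90.7%. A gene that was not called can therefore still differ. Each SE was obtained as log2 fold change over root F. Alternatives were limma-voom (limma 3.58.1), DESeq2 1.42.0, RLE scaling, other filters, a block for mouse number, edgeR's non-robust fit, protein-coding genes only, and leaving out each mouse. CPM are counts scaled to TMM library sizes. Ratios were tested by exact two-sided permutation over mice (SciPy 1.17.1). Mice are named as separate in the labels and are the replicates.

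The members and lists were chosen with earlier results of these data known. Named genes are the 8 members, Cd44, the 4 genes of smallest p in each of 5 pathway lists, the 3 nearest profiles per ligand, and Lta and Ltb beside Tnf. Il1r2, Il6, Rbck1, Sharpin and Cyld were chosen after their values were seen; Gm20319 and other overlapping genes are named for shared exons, and S100a4 as a marker at 0.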

Additional observations from a re-analysis of the deposited data

How the results depend on the processing

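Of the alternatives, the cause of a changed value was not tested. The edgeR count of genes with an adjusted p under 0.05, 2, was 6 with no low-count filter, 1 with the replicate block, 1 with the non-robust fit, 287 with DESeq2 and 0 with limma-voom, and ran from 0 to 151 when 1 mouse was left out, the highest without wild-type mouse 2. With limma-voom 4 members had an unadjusted p under 0.05. The count of members called, 0, was 1 with DESeq2 (Il1rn, -1.02) and ran from 0 to 1 with 1 mouse left out, and Il1rn ran from -1.26 to -0.79. The number of members with an unadjusted p under 0.05 ran from 2 to 5 with 1 mouse left out and was 4, or 3 with the CPM filter, elsewhere. With 1 mouse left out, Tnf ran from -1.93 to -1.35, Il1b from -1.72 to -0.92, Tnfrsf1b from -0.70 to -0.38, Il1a from -0.75 to -0.25 and Il1rap from 0.17 to 0.71. Tnfrsf1a ran from -0.19 to 0.04, being positive at 0.04 and 0.02 without knockout 3 and wild-type 1, and Il1r1 from -0.16 to 0.67, being negative at -0.16, -0.05 and -0.09 without knockout 1, wild-type 1 and wild-type 2. The Il1r1 to Il1rap log2 ratio ran from -0.76 to 0.43, positive without wild-type 3, and Il1rn per macrophage marker from -0.09 to 0.09, negative at -0.09 and -0.03 without knockout 3 and wild-type 1. The number of IL-1 decoys and relatives with a lower mean, 5, ran from 2 to 5 (2 without knockout 1). For the 8 members, the count at unadjusted p and its alternatives were chosen after seeing the data, as were the pathway list counts without 1 mouse or with DESeq2. The count of members without overlap was not planned either. The pathway list counts at unadjusted p in edgeR were planned, but on lists chosen with earlier results of these data known. Tnf was not tested with the CPM filter or without wild-type 1 and had an adjusted p with DESeq2 of 0.306. Mice of the same number share only a number: their deviations correlated at -0.0175 to -0.0100, and 0 of 6 libraries matched their own number best. With the replicate block none of the 8 members was called, and in the block form of the exact test of the ratios the smallest possible p is 0.25. Low counts limit Tnf, and more so Il1r2, Lta and Il6, which were not tested.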

Other observations

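Tnf has a pair of related neighbours on chromosome 17. Lta, which encodes lymphotoxin alpha (35203165 to 35205351), had 1, 2 and 1 counts in knockout mice and 0 in each wild-type mouse, at or under 3 counts per library. Ltb, which encodes lymphotoxin beta (35194439 to 35196320), had 9, 42 and 23 counts in knockout mice 1, 2 and 3 and 13, 37 and 11 counts in wild-type mice 1, 2 and 3, with a log2 fold change of 0.30 ± 0.65 (edgeR adjusted p = 0.898). Mouse 2 of each genotype was highest for Ltb, and those mice also had more T and NK cell marker transcripts (6.70 CPM in knockout 2 and 7.43 CPM in wild-type 2). B cell markers summed to 20.2, 107 and 227 CPM in knockout mice 1, 2 and 3, and to 15.5, 256 and 10.2 CPM in wild-type mice. Both they and Ltb were higher in knockout mice 2 and 3 and wild-type mouse 2 than in the other mice. The part of these cells in the Ltb values was not tested. Il6, a cytokine that TNF and IL-1 induce, had 0, 0 and 2 counts in knockout mice and 0 in each wild-type mouse.

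Of 35 other TNF superfamily ligands and receptors, 20 were tested, and none was called in edgeR or DESeq2. At an unadjusted p under 0.05, 4 had a lower mean and 1 a higher mean (background 7.59% and 5.22%). The higher one was Tnfrsf19, the receptor TROY, at 22.3 ± 2.89 CPM in knockout and 13.9 ± 2.65 CPM in wild-type livers (log2 fold change 0.68 ± 0.18, edgeR adjusted p = 0.221), without overlap. Tnfrsf11b, which encodes osteoprotegerin, the secreted decoy for RANK ligand, was at 3.08 ± 0.501 CPM in knockout and 5.59 ± 0.996 CPM in wild-type livers (-0.86 ± 0.25, edgeR adjusted p = 0.237). Tnfrsf21, or death receptor 6, had 12.3, 14.3 and 11.1 CPM in knockout mice and 20.1, 15.3 and 24.5 CPM in wild-type mice (-0.67 ± 0.20, edgeR adjusted p = 0.248), and neither gene overlapped between genotypes. Tnfrsf11a, which encodes the receptor RANK, gave -1.07 ± 0.42 (edgeR adjusted p = 0.342) and overlapped.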
